A study of Mus musculus with 21 samples.

Results

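The genes described here are 10 genes of the antioxidant defence of the cell: Nfe2l2, Nqo1, Cbr3, Gclc, Gclm, Slc7a11, Srxn1, Txnrd1, Txnip and Hmox1. They were taken by symbol from 2 tables of gene expression in mouse cells, which held values for 19321 and 27968 genes. All 10 had a row in the table of cocultured cells and 9 in the table of sorted cells, where Txnrd1 was not analysed. The 10 genes were selected on the expression values of these same libraries, in all the groups described below, so their levels and differences are given as a description, with no test. Where the rule used for all genes is applied to them, their count is given as a description too. Adjusted p are printed only for 111 other redox genes.

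Expression was measured by RNA-seq in 21 libraries, 3 in each of 7 groups, and given as FPKM, which scales reads by transcript length and library size. The groups 3D+OP9 and 3D+0.1% gelatin were total cells sorted on day 5, after hematopoietic-like colonies from a 3D culture of 6 to 8 days had been reseeded on OP9 stromal cells treated with mitomycin C, or on 0.1% gelatin without stromal cells. The sorted cells were mouse embryonic stem cells (mESC, sorted on SSEA-1), D5-LSKCD201+ and D5-LSKCD201- (lineage-negative, Sca-1+, c-kit+ cells of the 3D+OP9 culture on day 5, with or without CD201), FL-LSKCD201+ from fetal liver at E12.5 and BM-LSKCD201+ from adult bone marrow of mice aged 6 to 8 weeks. The labels give 129/ola as the background of all groups grown in culture and C57BL/6 for FL-LSKCD201+ and BM-LSKCD201+, so strain and source cannot be told apart. The methods name mESC of both backgrounds without saying which libraries they gave. The mESC were kept on mouse embryonic fibroblasts with leukemia inhibitory factor and 2-mercaptoethanol, a reducing agent. The coculture medium held SCF, IL-3 and Flt3 ligand, with no 2-mercaptoethanol listed in the methods, so medium and cell type cannot be told apart either. Stromal cells may be among those collected in 3D+OP9, since total cells were taken. The labels do not say whether replicates were separate cultures or animals, while the paper calls those of the sorted groups biological.

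NRF2, the protein made from Nfe2l2, is a transcription factor that is held in the cytoplasm by KEAP1 and degraded while the cell is not under oxidative or electrophilic stress. When KEAP1 is modified, NRF2 enters the nucleus, pairs with a small MAF protein and binds antioxidant response elements beside genes for quinone reduction, glutathione synthesis and the thioredoxin system, while BACH1 competes for many of these elements. NRF2 is regulated largely at the protein level, so the level of its messenger RNA is not a measure of its activity. In blood stem cells this defence is known for keeping reactive oxygen species low.

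The start-site regions of 4 of the genes are shown, Nqo1 and Cbr3 because their levels differed most between groups, and Gclm and Srxn1 because they hold copies of the element's core. The sequences are RefSeq promoter windows of GRCm38.p6, 250 bases before to 50 bases after the start site, printed on the gene's own strand. They lie at chr8:107403156-107403455 (minus strand) for Nqo1, chr16:93682969-93683268 (plus strand) for Cbr3, chr3:122245307-122245606 (plus strand) for Gclm and chr2:152105274-152105573 (plus strand) for Srxn1. Capitals mark TGACNNNGC or TGAGNNNGC on either strand, the core of the antioxidant response element.
Nqo1: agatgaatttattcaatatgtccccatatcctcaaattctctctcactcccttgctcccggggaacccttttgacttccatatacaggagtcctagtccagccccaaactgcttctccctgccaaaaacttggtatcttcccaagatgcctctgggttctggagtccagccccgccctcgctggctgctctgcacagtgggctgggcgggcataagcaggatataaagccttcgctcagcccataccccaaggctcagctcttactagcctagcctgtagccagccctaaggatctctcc
Cbr3: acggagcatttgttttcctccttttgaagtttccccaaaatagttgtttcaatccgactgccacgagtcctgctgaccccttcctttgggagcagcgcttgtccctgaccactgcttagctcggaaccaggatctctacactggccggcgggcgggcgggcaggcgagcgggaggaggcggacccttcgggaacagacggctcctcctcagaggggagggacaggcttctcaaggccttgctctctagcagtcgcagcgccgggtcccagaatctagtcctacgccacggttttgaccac
Gclm: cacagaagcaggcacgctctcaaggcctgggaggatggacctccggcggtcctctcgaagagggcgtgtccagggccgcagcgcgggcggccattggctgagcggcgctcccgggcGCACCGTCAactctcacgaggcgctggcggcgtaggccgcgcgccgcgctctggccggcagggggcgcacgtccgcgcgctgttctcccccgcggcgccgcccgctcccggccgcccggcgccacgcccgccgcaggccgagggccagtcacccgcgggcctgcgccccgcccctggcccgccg
Srxn1: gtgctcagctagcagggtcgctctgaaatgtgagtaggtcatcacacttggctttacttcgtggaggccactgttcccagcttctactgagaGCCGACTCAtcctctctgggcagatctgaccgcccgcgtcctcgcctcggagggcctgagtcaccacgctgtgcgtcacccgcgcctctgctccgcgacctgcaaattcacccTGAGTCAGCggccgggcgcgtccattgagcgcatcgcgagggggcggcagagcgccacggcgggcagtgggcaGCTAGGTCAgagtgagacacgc

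Gclm had 1 match, which began 134 bases before the start site. Srxn1 had 3 matches, which began 158 and 45 bases before the start site and at base 29 after it. These letters were not in the windows shown for Nqo1 and Cbr3. A window was found for 8 of the 10 genes, and 5 of the 8 had a match in at least 1 window, the others being Nfe2l2, Slc7a11 and Txnrd1. Of all 32851 windows, 27.8% held one of the cores, 12.4% the form with C and 17.6% the form with G. Counted by gene, 30.8% of all genes with a window had a match, and 36 of 95 (37.9%) of the other redox genes. The form with G overlaps the AP-1 motif TGAGTCA, which the Srxn1 match 45 bases before the start site also holds. A match is a description of these letters only, and binding was not measured.

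Markers were read before the redox genes. Procr, the gene of CD201, was between 57.9 and 61.9 FPKM in D5-LSKCD201+ and between 3.02 and 3.82 in D5-LSKCD201-, as the gate was set. The 5 pluripotency markers summed to between 1162 and 1196 FPKM in mESC and between 618 and 673 in D5-LSKCD201-, where all 5 were measured at a mean of at least 1 FPKM, while in D5-LSKCD201+ they summed to at most 5.94. The 6 endothelial markers summed to between 671 and 696 for D5-LSKCD201+ and to at most 76.4 in the other sorted groups. The blood-cell gene Ptprc (CD45) and the stem cell gene Hlf stayed below 1 FPKM in both D5 groups, against at least 38.4 and 24.2 FPKM in FL-LSKCD201+ and BM-LSKCD201+. In FL-LSKCD201+ the 9 erythroid markers summed to between 4950 and 10932 FPKM and the 7 hepatic markers to between 386 and 616, against at most 144 and 9.78 in the other sorted groups. Across genes, replicates of a group had a Pearson r of at least 0.976, and 1 library lay apart from the other 2 in 3D+OP9 (replicate 3), D5-LSKCD201- (replicate 2), FL-LSKCD201+ (replicate 1) and BM-LSKCD201+ (replicate 1).

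**Figure D1:**
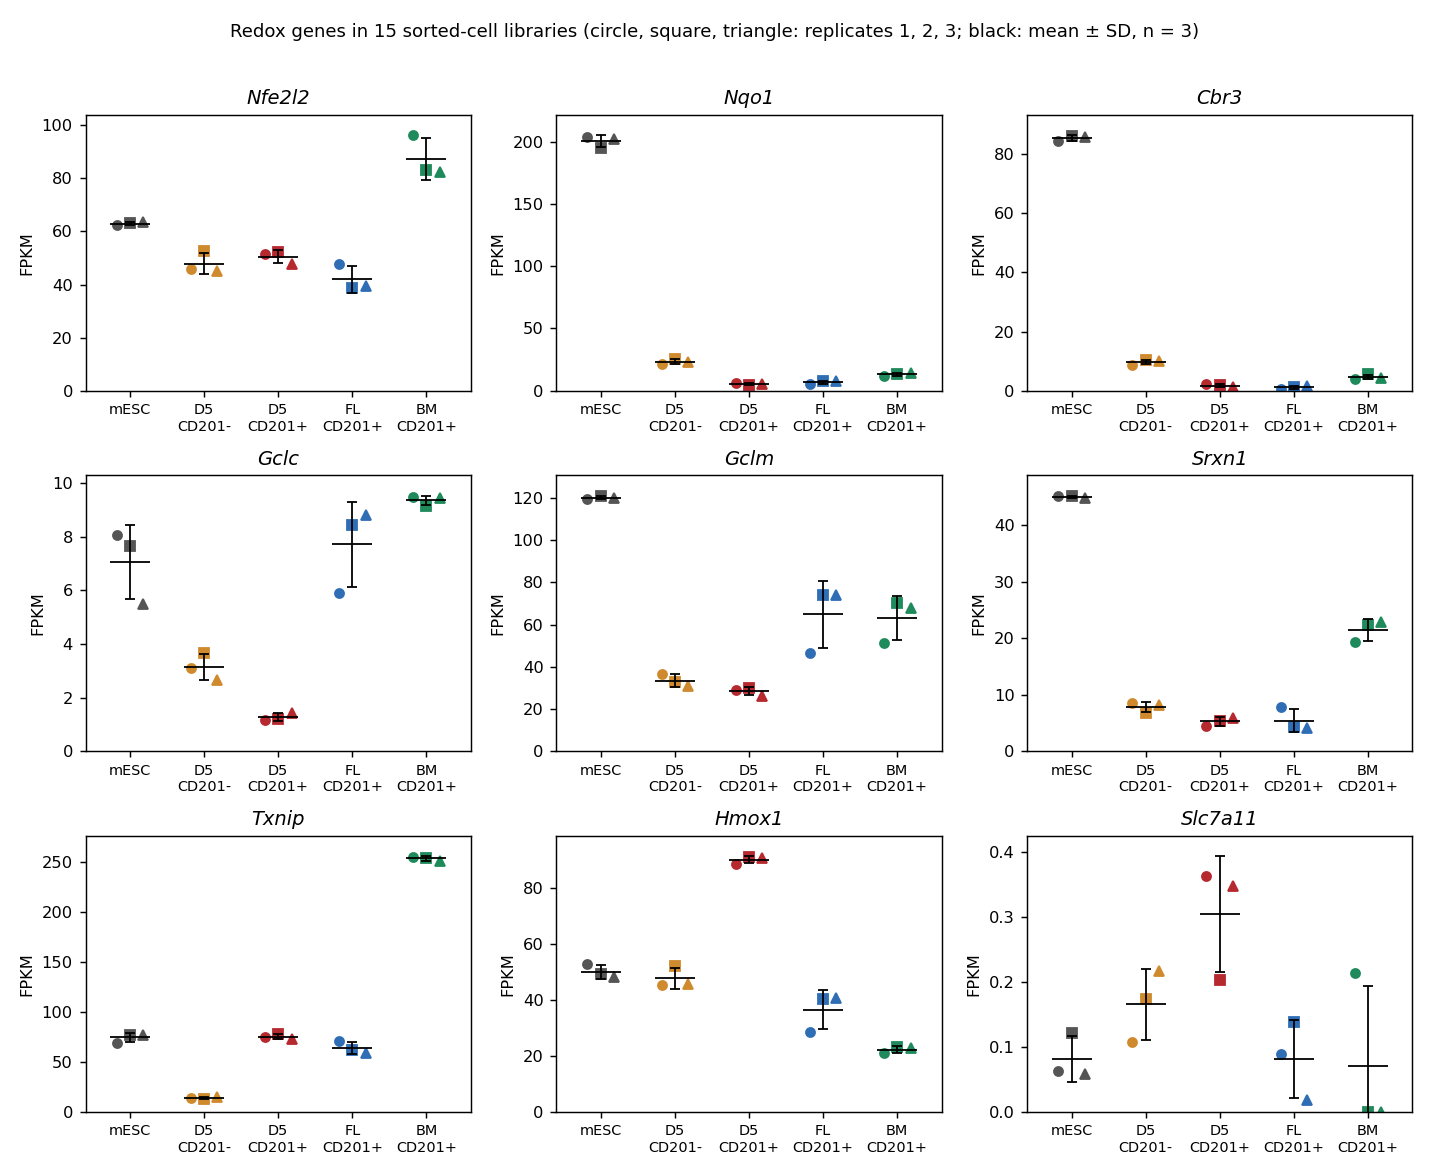
FPKM (vertical axes, linear, each from 0) of 9 redox genes in the 15 sorted-cell libraries, by group; points are replicates 1 (circle), 2 (square) and 3 (triangle), and black marks are the mean ± SD of 3 libraries. Nqo1 and Cbr3 stand far above all other groups in mESC, Txnip in BM-LSKCD201+ and Hmox1 for D5-LSKCD201+, and Slc7a11 is at most 0.363 FPKM.

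Nfe2l2, which encodes NRF2 itself, varied least among the genes that were well measured. It was 62.2, 63.0 and 63.7 FPKM in mESC, 45.7, 52.5 and 45.3 in D5-LSKCD201-, and 51.5, 52.3 and 47.8 for D5-LSKCD201+. In FL-LSKCD201+ it was 47.6, 38.7 and 39.4, and in BM-LSKCD201+ 96.2, 83.0 and 82.2. BM-LSKCD201+ stood above every other group and mESC above the remaining groups, while both D5 groups overlapped and D5-LSKCD201- overlapped FL-LSKCD201+. The mean in BM-LSKCD201+ was 2.08-fold that in FL-LSKCD201+, the widest gap between any pair of groups. The gene lies at chr2:75675513-75704641 on the minus strand of GRCm38.

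Nqo1 and Cbr3 encode enzymes that reduce quinones and carbonyl compounds, and both were much higher in mESC than in every other group. Nqo1 was 204, 195 and 202 FPKM in mESC, 21.6, 25.4 and 22.7 in D5-LSKCD201- and 6.03, 4.85 and 4.997 for D5-LSKCD201+. It was 5.06, 7.43 and 7.65 in FL-LSKCD201+ and 11.5, 13.8 and 13.9 in BM-LSKCD201+. The order was mESC, D5-LSKCD201-, BM-LSKCD201+, FL-LSKCD201+ and D5-LSKCD201+, and only the last 2 overlapped. The mESC mean was 8.63-fold that of D5-LSKCD201- and 37.8-fold that of D5-LSKCD201+. On the log2(FPKM + 1) scale used for all differences below, D5-LSKCD201+ lay 1.95 ± 0.10 (SE) under D5-LSKCD201-.

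Cbr3 gave the same leading groups in the same order at lower levels. Its values were 84.3, 86.1 and 85.7 FPKM in mESC, 8.79, 10.3 and 10.1 in D5-LSKCD201-, 2.15, 1.90 and 1.19 for D5-LSKCD201+, 0.655, 1.13 and 1.67 in FL-LSKCD201+ and 3.92, 5.47 and 4.35 in BM-LSKCD201+. Only D5-LSKCD201+ and FL-LSKCD201+ overlapped, both at low levels. The mESC mean was 8.78-fold that of D5-LSKCD201- and 48.9-fold that of D5-LSKCD201+. Nqo1 lies at chr8:107388225-107403206 on the minus strand and Cbr3 at chr16:93683215-93690990 on the plus strand.

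In mESC and D5-LSKCD201- these levels can be set beside those of the pluripotency genes. In D5-LSKCD201- the mean of Nqo1 was 11.6% and that of Cbr3 11.4% of the mESC mean, while Pou5f1 was at 51.7%, Zfp42 at 55.9%, Esrrb at 46.9%, Sox2 at 24.1% and Nanog at 100.2%. Both redox genes were thus further below the mESC level than any of the 5 pluripotency markers in those cells, and so were Srxn1 (17.4%) and Txnip (18.2%). In D5-LSKCD201+ Nqo1 was at 2.64% and Cbr3 at 2.05%, and the 5 pluripotency markers were at most at 0.840%. Fewer cells of a type and less RNA per cell cannot be told apart in these bulk libraries, and the part of remaining pluripotent cells in the D5-LSKCD201- values was not tested.

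**Figure D2:**
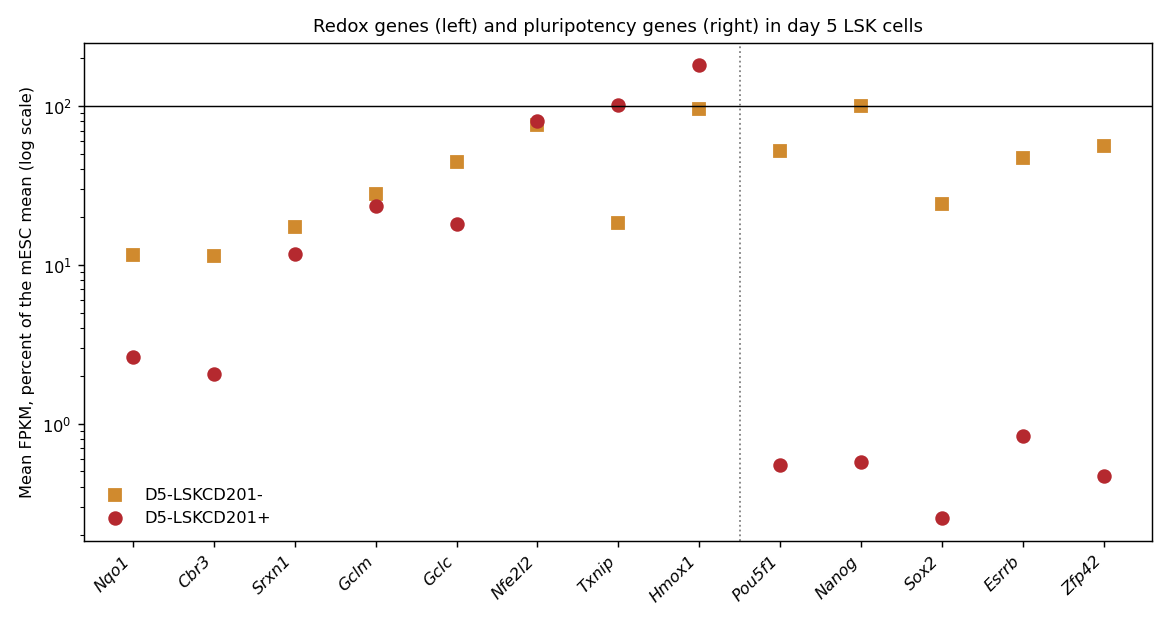
Mean FPKM of 8 redox genes (left of the dotted line) and 5 pluripotency markers (right) in D5-LSKCD201- (squares) and D5-LSKCD201+ (circles), each as a percent of the mESC mean on a log axis; the line at 100 is the mESC level. In D5-LSKCD201-, Nqo1, Cbr3, Srxn1 and Txnip lie below all 5 pluripotency markers, and in D5-LSKCD201+ Txnip lies at the mESC level and Hmox1 above it.

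Both subunit genes of glutathione synthesis were lowest in D5-LSKCD201+. Gclc, the catalytic subunit of the enzyme that makes the first bond of glutathione, was 8.05, 7.66 and 5.48 FPKM in mESC, 3.11, 3.65 and 2.66 in D5-LSKCD201- and 1.17, 1.20 and 1.44 for D5-LSKCD201+. It was 5.88, 8.42 and 8.82 in FL-LSKCD201+ and 9.46, 9.15 and 9.43 in BM-LSKCD201+. BM-LSKCD201+ stood above the other groups, mESC and FL-LSKCD201+ overlapped, and both D5 groups stood below all others without overlap. The levels in D5-LSKCD201+ were as low as those of Cbr3. The BM-LSKCD201+ mean was 7.37-fold and the FL-LSKCD201+ mean 6.08-fold that of D5-LSKCD201+. The gene lies at chr9:77754535-77794485 on the plus strand.

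Gclm, the modifier subunit of the same enzyme, had much higher levels than Gclc in each sorted group. It was 119.6, 121.0 and 119.8 FPKM in mESC, 36.8, 32.6 and 30.9 in D5-LSKCD201-, 29.0, 29.8 and 26.3 for D5-LSKCD201+, 46.6, 74.1 and 74.0 in FL-LSKCD201+ and 51.0, 70.3 and 67.6 in BM-LSKCD201+. Replicate 1 was the lowest library in both groups from mice, and these groups overlapped. The D5 groups did not overlap, but their means differed only 1.18-fold. Against FL-LSKCD201+, Gclm in D5-LSKCD201+ lay lower by 1.14 ± 0.18 (log2, SE), and by 1.36 without FL-LSKCD201+ replicate 1. Gclm starts at chr3:122245557, and the locus that the file gives it spans 284635 bases against 25176 in the GENCODE M21 annotation, so reads of neighbouring transcripts may be in its value.

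Slc7a11, the cystine carrier that supplies cysteine for glutathione, was at most 0.363 FPKM in any sorted library and at most 0.640 in any cocultured one. It was listed at 0 in 2 BM-LSKCD201+ libraries. In D5-LSKCD201+ it was 0.363, 0.202 and 0.348 FPKM, above every mESC library (at most 0.122) and every FL-LSKCD201+ library (at most 0.138), and overlapping D5-LSKCD201- (up to 0.216) and BM-LSKCD201+ (up to 0.213). The gene was under the filter on low values, so no fold or difference is given.

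Of the thioredoxin genes, Srxn1, which encodes sulfiredoxin and restores overoxidised peroxiredoxins, was highest in mESC. It was 45.18, 45.18 and 44.9 FPKM in mESC, 8.60, 6.78 and 8.13 in D5-LSKCD201-, 4.46, 5.41 and 5.94 for D5-LSKCD201+, 7.81, 4.36 and 4.13 in FL-LSKCD201+ and 19.3, 22.4 and 22.8 in BM-LSKCD201+. BM-LSKCD201+ was next after mESC, and the lowest groups, FL-LSKCD201+ and D5-LSKCD201+, overlapped, as did FL-LSKCD201+ and D5-LSKCD201-. The mESC mean was 8.56-fold that of D5-LSKCD201+. FL-LSKCD201+ lay 1.85 ± 0.21 (log2, SE) under BM-LSKCD201+, and 2.17 under it without replicate 1 of both groups. The gene lies at chr2:152105516-152111376 on the plus strand.

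Txnip, which binds and inhibits thioredoxin and limits glucose uptake, followed another pattern. It was 255.0, 253.8 and 250.8 FPKM in BM-LSKCD201+, 74.4, 77.5 and 72.6 for D5-LSKCD201+, 68.5, 77.0 and 77.1 in mESC, 70.7, 62.1 and 59.2 in FL-LSKCD201+ and 13.9, 12.3 and 14.3 in D5-LSKCD201-. BM-LSKCD201+ stood above and D5-LSKCD201- below every other group, D5-LSKCD201+ overlapped mESC, and mESC overlapped FL-LSKCD201+. The mean in D5-LSKCD201+ was 5.53-fold that in D5-LSKCD201-, a log2 difference of 2.39 ± 0.07 (SE), and the BM-LSKCD201+ mean was 3.38-fold that in D5-LSKCD201+. D5-LSKCD201- held 18.2% of the mESC level. Txnip starts at chr3:96557957 in GENCODE M21, and the locus in the file is longer, with 11037 bases against 3927, so its value too may hold reads of neighbouring transcripts.

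Hmox1, heme oxygenase 1, breaks down heme and is bound by both NRF2 and BACH1. It was highest in D5-LSKCD201+, at 88.5, 90.7 and 90.5 FPKM, then 52.6, 49.0 and 48.0 in mESC, 45.3, 51.8 and 45.7 in D5-LSKCD201-, 28.3, 40.3 and 40.5 in FL-LSKCD201+ and 20.8, 23.1 and 22.7 in BM-LSKCD201+. Only mESC and D5-LSKCD201- overlapped. The D5-LSKCD201+ mean was 1.89-fold that of D5-LSKCD201-, 2.47-fold that of FL-LSKCD201+ and 4.05-fold that of BM-LSKCD201+. Macrophages are rich in Hmox1. A list of 10 macrophage markers summed to between 40.6 and 42.8 FPKM in D5-LSKCD201+, most of it Mrc1, which was between 35.3 and 37.3 FPKM there and at most 1.44 in every other sorted group. Of the other markers, 7 were below 1 FPKM in every D5-LSKCD201+ library, with C1qa, Timd4 and Cd163 at 0. The list summed to between 10.6 and 17.2 FPKM in mESC and D5-LSKCD201- and to at least 103 in FL-LSKCD201+ and BM-LSKCD201+, and its part in the Hmox1 levels was not tested. Hmox1 lies at chr8:75093621-75100589 on the plus strand.

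**Figure D3:**
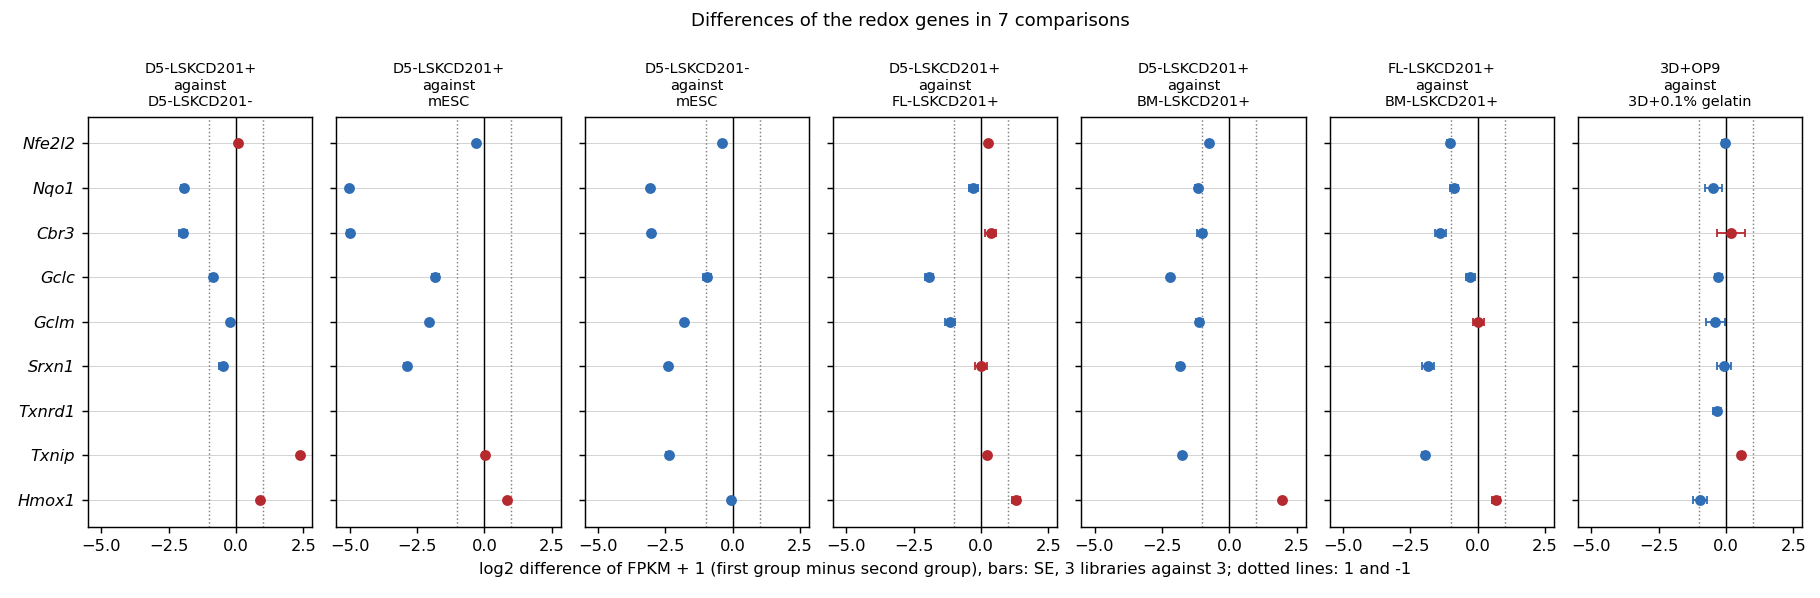
Log2 differences of FPKM + 1 (horizontal axes, first group minus second) of 9 redox genes in 7 comparisons of 3 libraries against 3; bars are SE, blue is below 0, red above 0, and dotted lines mark 1 and -1. Txnrd1 has a value only in the coculture comparison, and Slc7a11 was under the filter on low values; Nqo1 and Cbr3 have the same sign in all sorted comparisons but D5-LSKCD201+ against FL-LSKCD201+.

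The same values can be read by comparison, with the rule used for all genes (limma, a log2 change of 1 or more in either direction with an adjusted p below 0.05). As the genes were chosen on these contrasts, nothing is read from their counts. D5-LSKCD201+ and D5-LSKCD201- were sorted apart on CD201, and also differ in pluripotency markers (at most 5.94 against at least 618 FPKM summed) and endothelial markers (at least 671 against at most 42.7), whose part was not tested. Of 8 genes that passed the filter on low values, Txnip was past the rule on the higher side and Nqo1 and Cbr3 on the lower, beside 10.8% and 13.9% of all genes. In D5-LSKCD201+ against mESC, 0 were past it on the higher side and 5 on the lower (Nqo1, Cbr3, Srxn1, Gclm and Gclc), beside 19.5% and 18.1% of all genes. In D5-LSKCD201- against mESC, 0 were higher and 5 lower (Nqo1, Cbr3, Srxn1, Txnip and Gclm), beside 10.9% and 3.48% of all genes. For that comparison 75.7% of all genes called were on the higher side, and 61.4% after quantile normalization. Pluripotency markers summed higher and endothelial markers lower in mESC than in both D5 groups, and their part was not tested.

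In D5-LSKCD201+ against FL-LSKCD201+, which sets the cultured cells beside fetal stem cells of the same gate, Hmox1 was past the rule on the higher side and Gclc and Gclm on the lower, beside 15.1% and 19.6% of all genes. Erythroid and hepatic markers were high in FL-LSKCD201+ (above), and their part in these values was not tested. In D5-LSKCD201+ against BM-LSKCD201+, Hmox1 was past it on the higher side and 6 genes on the lower (Gclc, Srxn1, Txnip, Nqo1, Gclm and Cbr3), beside 17.5% and 27.2% of all genes. After quantile normalization the differences of Nqo1 and Cbr3 there were -0.85 and -0.66, in place of -1.16 and -1.03. Endothelial and stromal markers summed higher in D5-LSKCD201+ than in both groups from mice, and macrophage markers lower. Most of the stromal sum was Col1a1, Col1a2 and Col3a1, with means of 29.8, 29.5 and 17.8 FPKM in D5-LSKCD201+. Postn was lower than in FL-LSKCD201+ (7.92 against 10.5) and Pdgfrb lower than in BM-LSKCD201+ (1.30 against 3.44). Of the macrophage markers, Mrc1 was higher in D5-LSKCD201+ (above). The 7 blood stem cell markers summed to 40.1 to 44.1 FPKM in D5-LSKCD201+, 474 to 564 in FL-LSKCD201+ and 732 to 738 in BM-LSKCD201+. The part of these markers was not tested. In FL-LSKCD201+ against BM-LSKCD201+, 0 were past the rule on the higher side and 4 on the lower (Txnip, Srxn1, Cbr3 and Nfe2l2), beside 7.78% and 11.3% of all genes. Comparisons that share a group share its libraries. Leaving out the library that lay apart moved no member's difference by more than 0.09 for D5-LSKCD201- replicate 2, 0.25 for FL-LSKCD201+ replicate 1 and 0.14 for BM-LSKCD201+ replicate 1. A few differences near 1 crossed it when a library was left out. Gclc in D5-LSKCD201- against mESC was -1.04 in place of -0.95 without D5-LSKCD201- replicate 2, and -1.10 without mESC replicate 3. Nfe2l2 in FL-LSKCD201+ against BM-LSKCD201+ was -0.97 in place of -1.04 without BM-LSKCD201+ replicate 1, and -0.99 without FL-LSKCD201+ replicate 2. Cbr3 in D5-LSKCD201+ against BM-LSKCD201+ was -0.88 in place of -1.03 without D5-LSKCD201+ replicate 3, and -0.92 without BM-LSKCD201+ replicate 2.

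In the coculture table the question is what the OP9 stroma adds on day 5. The culture on OP9 and that on gelatin differed at most 2.03-fold in the mean of any of the 9 genes that passed the filter, and 0 of the 9 were past the rule on either side, beside 2.11% (higher) and 0.509% (lower) of all genes. Several marker lists differed between both cultures. Summed FPKM in 3D+OP9 against 3D+0.1% gelatin were 69.3 to 84.1 against 8.86 to 18.8 for 6 endothelial markers, 218 to 783 against 4.90 to 22.8 for 9 erythroid markers and 62.4 to 71.8 against 29.3 to 41.0 for 10 stromal markers. They were 7.47 to 9.87 against 1.40 to 1.81 for 7 blood stem cell markers and 502 to 764 against 830 to 910 for 5 pluripotency markers. Most of the pluripotency sum was Pou5f1, with means of 388 against 624 FPKM. Nanog was lower in 3D+OP9 too (73.3 against 149) and Sox2 overlapped. Esrrb (33.1 against 2.08) and Zfp42 (40.1 against 5.50) were higher in 3D+OP9, without overlap. The part of these cells in the values below was not tested. Values of both groups did not overlap for 2 of the 9, Hmox1 and Txnip, beside 28.7% of all genes. Hmox1 was 106.1, 111.9 and 143.0 FPKM in 3D+OP9 and 180.4, 202.2 and 350.8 in 3D+0.1% gelatin. Its mean in 3D+0.1% gelatin was 2.03-fold that in 3D+OP9, a log2 difference of -0.97 ± 0.24 (SE). Txnip was 42.2, 44.1 and 43.4 FPKM in 3D+OP9 and 30.3, 29.7 and 28.2 in 3D+0.1% gelatin, a log2 difference of 0.54 ± 0.07.

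The remaining genes overlapped between both cultures. Txnrd1, thioredoxin reductase 1 of the cytosol (chr10:82833951-82897712, plus strand), was 72.2, 69.9 and 78.9 FPKM in 3D+OP9 and 78.0, 91.3 and 112.9 in 3D+0.1% gelatin. Gclm was 19.1, 20.55 and 45.55 against 25.0, 33.2 and 50.6, and Gclc 27.9, 26.9 and 36.0 against 33.1, 37.8 and 40.6. Nqo1 was 1.62, 1.92 and 4.33 against 2.40, 3.74 and 5.66, and Cbr3 3.29, 2.67 and 13.5 against 2.72, 4.14 and 7.10. Nfe2l2 was between 24.0 and 27.9 FPKM in all 6 libraries, and Srxn1 between 4.27 and 8.86.

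Replicate 3 was the highest of its group in both cultures for 7 of the 10 genes (Nqo1, Cbr3, Gclc, Gclm, Srxn1, Txnrd1 and Hmox1), a pattern noticed after the values were seen. Of all genes tested, 24.1% were highest in replicate 3 of both groups, 8.32% in replicate 1 and 8.73% in replicate 2. Of the 5 pluripotency markers, replicate 3 was the highest for 4 in 3D+OP9 (Sox2 at 38.6, 41.2 and 92.0 FPKM, and Pou5f1, Esrrb and Zfp42) and the lowest for Nanog (76.7, 72.9 and 70.3). In 3D+0.1% gelatin it was the highest for Pou5f1, Esrrb and Zfp42 and the lowest for Sox2 (79.1, 91.8 and 60.7) and Nanog (170.8, 170.9 and 105.8). The embryonic globin Hbb-bh1 was 110.8, 204.0 and 412.6 FPKM in 3D+OP9 and 0.27, 0.09 and 7.08 in 3D+0.1% gelatin. The part of these markers was not tested. Without replicate 3 of both groups, the difference was -0.80 for Hmox1, 0.51 for Txnip, -0.54 for Nqo1 and -0.52 for Gclm. Without 3D+OP9 replicate 3 alone, it was -0.78 for both Nqo1 and Gclm and -0.44 for Cbr3, and the Hmox1 difference was -1.09 (-1.15 without 3D+0.1% gelatin replicate 1). When replicate 3 of both was left out, Cbr3 changed sign, from 0.19 to -0.14, and Srxn1 from -0.07 to 0.05. Both tables were normalized separately, so the level of Gclc, between 26.9 and 40.6 FPKM here and at most 9.46 in the sorted cells, is given for each table only.

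**Figure D4:**
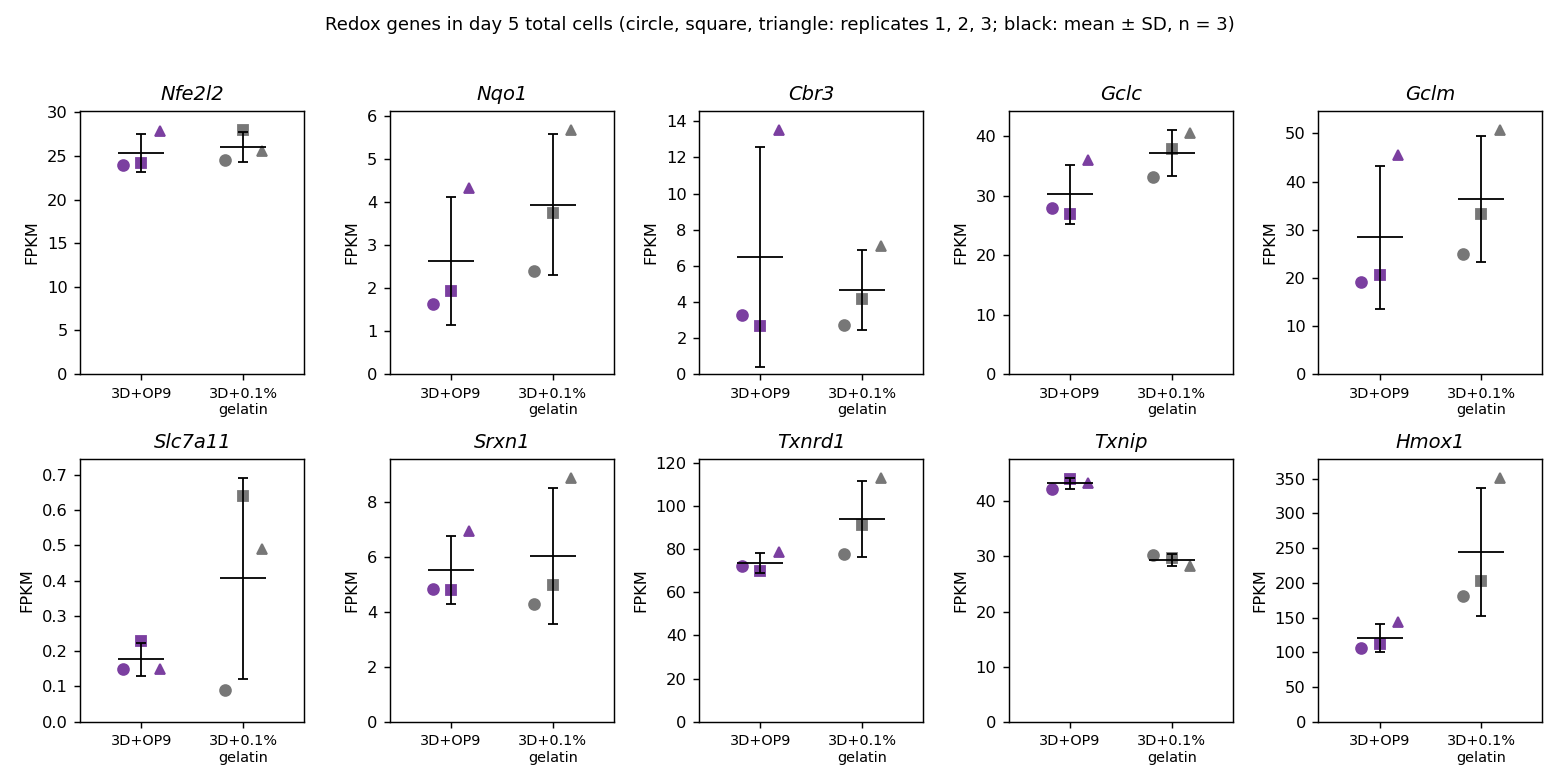
FPKM (vertical axes, linear, each from 0) of all 10 redox genes in day 5 total cells of the culture on OP9 (3D+OP9) or on gelatin; points are replicates 1 (circle), 2 (square) and 3 (triangle), and black marks are the mean ± SD of 3 libraries. Hmox1 lies lower and Txnip higher in 3D+OP9 with no overlap, where 28.7% of all genes have none either. Replicate 3 is highest in both cultures for 7 genes, beside 24.1% of all genes tested.

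The members differed in how far they followed each other over the 15 sorted-cell libraries, which fall into 5 groups, so that these correlations of log2(FPKM + 1) describe group levels. Cbr3 was the gene most like Nqo1 among 14456 genes, with a Pearson r of 0.991, followed by Ak7 (0.990) and Gm17322 (0.985). Srxn1 had an r of 0.83 and Gclm of 0.71 with Nqo1, while Nfe2l2 had 0.28, Txnip -0.11 and Hmox1 -0.02. Closest to Txnip were Myc (0.973), Parp9 (0.972) and Vsig10 (0.972), and closest to Hmox1 were Ptk2 (0.977), Gipc2 (0.971) and Tmem120b (0.9696). Gclc ran against Hmox1, with an r of -0.82. By Spearman's correlation, 1 of the 3 genes closest to Nqo1, 0 of those closest to Txnip and 1 of those closest to Hmox1 were the same. For Nqo1 the closest were then Cdc37l1, Ssbp1 and Ak7, and Cbr3 was no longer among them.

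The pathway around the members was read from the 111 other redox genes, in groups by role. Keap1, the NRF2 inhibitor, was 13.9, 13.2 and 13.9 FPKM in mESC, 18.7, 14.7 and 18.0 in D5-LSKCD201-, 25.8, 26.8 and 26.2 for D5-LSKCD201+, 44.1, 30.8 and 33.1 in FL-LSKCD201+ and 54.7, 61.1 and 65.1 in BM-LSKCD201+, and no neighbouring groups overlapped. It was lower in D5-LSKCD201+ than in BM-LSKCD201+ (log2 fold change -1.17 ± 0.07 SE, limma adjusted p = 2.4e-06). Bach1, the repressor, was higher in D5-LSKCD201+ than in mESC (1.21 ± 0.09, limma adjusted p = 1.28e-06), at 3.68 ± 0.41 against 1.01 ± 0.08 FPKM (SD, n = 3). Its log2 difference between D5-LSKCD201+ and D5-LSKCD201- was 0.35 ± 0.18 (limma adjusted p = 0.12). Against BM-LSKCD201+, 5 of 11 tested regulators were lower in D5-LSKCD201+ and 0 higher, beside 27.2% and 17.5% of all genes, with the small MAF genes Mafk, Mafg and Maff, the ligase subunit Cul3 and Keap1.

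Between D5-LSKCD201+ and D5-LSKCD201-, 4 of 106 tested redox genes were called higher (3.77%) and 17 called lower (16.04%), beside 10.8% and 13.9% of all genes, with a median log2 difference of -0.04 against -0.12 over all genes. Of 18 glutathione genes, 7 were lower and 0 higher. Gpx2, among the 7, was at 0 FPKM in D5-LSKCD201+ and passed the filter on low values only through D5-LSKCD201-. After quantile normalization 1685 genes were higher and 1665 lower, in place of 1475 and 1904, and of the redox genes 6 and 16. Pluripotency markers were high in D5-LSKCD201- and endothelial markers in D5-LSKCD201+ (sums above), and their part in these counts was not tested. Among the 7 was Ggct, which releases amino acids from gamma-glutamyl peptides, with 1.09 ± 0.10 FPKM against 13.4 ± 1.71 (SD, n = 3; log2 fold change -2.78 ± 0.11, limma adjusted p = 1.1e-06). The glutathione transferases Gsta3 (-2.45 ± 0.09, limma adjusted p = 8.31e-07) and Gstm1 (-1.96 ± 0.09, limma adjusted p = 1.82e-06) were lower too, and both belong to families of near-identical genes whose reads may have been split. Gsta3 averaged 0.0564 FPKM in D5-LSKCD201+, so that it passed the filter on low values only through D5-LSKCD201-. Among the higher genes were the aldo-keto reductase Akr1b8 (1.45 ± 0.08, limma adjusted p = 5.76e-06), Hmox2, the constitutive heme oxygenase (93.3 ± 0.72 against 33.8 ± 3.73 FPKM; 1.44 ± 0.08, limma adjusted p = 4.93e-06) and the stress-responsive transcription factor Foxo1 (1.20 ± 0.18, limma adjusted p = 0.000712). Akr1b8, like the transferases, has close paralogs.

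Against mESC, D5-LSKCD201+ had 27 of 104 tested redox genes higher (25.96%) and 19 lower (18.3%), beside 19.5% and 18.1% of all genes. D5-LSKCD201- had 18 of 106 higher (17.0%) and 2 lower (1.89%), beside 10.9% and 3.48% of all genes. The 2 lower genes were Arrdc4, an arrestin related to Txnip (-1.09 ± 0.07, limma adjusted p = 1.52e-05), and the exporter Abcc4 (-2.14 ± 0.14, limma adjusted p = 1.67e-05). The list as a whole had a median of 0.22 in D5-LSKCD201- and 0.06 for D5-LSKCD201+ against mESC, beside 0.05 and -0.07 over all genes. Of 8 genes of the NADPH oxidase, 3 were under the filter on low values and the other 5 were higher in D5-LSKCD201+ than in mESC, where a gene that is low in mESC could pass the filter only through D5-LSKCD201+, among them Cyba (2.69 ± 0.06, limma adjusted p = 6.21e-10). The glutathione peroxidases Gpx3 (2.62 ± 0.31 for D5-LSKCD201+, limma adjusted p = 4.06e-05) and Gpx8, the aldehyde dehydrogenase Aldh3a1 and the iron exporter Slc40a1 were higher than in mESC in both D5 groups. Gpx3 averaged 0.145 FPKM in mESC, so that it passed the filter on low values only through the D5 groups. In D5-LSKCD201- the log2 fold changes of Gpx8, Aldh3a1 and Slc40a1 were 2.12 ± 0.10, 2.27 ± 0.14 and 3.41 ± 0.10 (limma adjusted p = 4.17e-06, 1.63e-05 and 7.45e-07). Lower in D5-LSKCD201+ were Abcc4 (-4.06 ± 0.10, limma adjusted p = 9.34e-10), Ggct (-1.97 ± 0.08, limma adjusted p = 1.94e-08) and the aldose reductase Akr1b3 (-1.82 ± 0.03, limma adjusted p = 6.3e-11). Pluripotency markers summed higher and endothelial markers lower in mESC than in both D5 groups. The 10 stromal markers summed to 7.77 to 9.52 FPKM in mESC, 36.3 to 70.0 in D5-LSKCD201- and 90.7 to 95.2 for D5-LSKCD201+. The part of these markers in the counts was not tested.

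Against the groups from mice, more of the list was lower than higher in D5-LSKCD201+: 36 (34.0%) against 17 (16.04%) of 106 tested beside FL-LSKCD201+, and 37 (35.9%) against 18 (17.5%) of 103 beside BM-LSKCD201+. All genes leaned the same way, with 19.6% lower and 15.1% higher beside FL-LSKCD201+ and 27.2% and 17.5% beside BM-LSKCD201+. After quantile normalization 2303 genes were lower and 2308 higher beside FL-LSKCD201+, and of the redox genes 33 and 20. Beside BM-LSKCD201+ 3014 genes were then lower and 2881 higher, in place of 3753 and 2406, and of the redox genes 36 and 20. Among the lower genes were leukocyte NADPH oxidase genes, with Rac2 at 2.22 ± 0.46 FPKM in D5-LSKCD201+, 177 ± 18.8 in FL-LSKCD201+ and 170 ± 13.3 in BM-LSKCD201+ (SD, n = 3), and log2 fold changes of -5.80 ± 0.13 and -5.74 ± 0.11 (limma adjusted p = 1.04e-07 and 9.29e-09). Ncf4 had -3.71 ± 0.12 and -4.49 ± 0.12 (limma adjusted p = 3.78e-07 and 3.59e-08), and Ncf1 -3.94 ± 0.18 against FL-LSKCD201+ (limma adjusted p = 2.01e-06). Osgin1, a growth inhibitor induced by oxidative stress, was 1.75, 2.27 and 1.66 FPKM in D5-LSKCD201+, 30.0, 21.4 and 21.3 in FL-LSKCD201+ and 205, 223 and 221 in BM-LSKCD201+. Its log2 fold change against BM-LSKCD201+ was -6.24 ± 0.09 (limma adjusted p = 2.56e-09).

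Higher in D5-LSKCD201+ than in both groups from mice were Akr1b8 (4.47 ± 0.27 and 5.36 ± 0.07, limma adjusted p = 7.75e-06 and 2.24e-09) and Gpx8, a peroxidase of the endoplasmic reticulum (4.38 ± 0.09 and 5.001 ± 0.09, limma adjusted p = 9.3e-08 and 5.92e-09). In BM-LSKCD201+ Akr1b8 averaged 0.0368 and Gpx8 0.0929 FPKM. Against that group both thus passed the filter on low values only through D5-LSKCD201+. Gsta4 and Gstm2 were called higher against both groups too, Gsta4 by 3.95 ± 0.06 against FL-LSKCD201+ (limma adjusted p = 4.32e-08) and Gstm2 by 3.44 ± 0.12 against BM-LSKCD201+ (limma adjusted p = 1.64e-07). More of the glutathione transferase and export genes were lower. Against FL-LSKCD201+ 2 of 11 tested were higher and 6 lower, beside 15.1% and 19.6% of all genes. Against BM-LSKCD201+ 2 of 10 were higher and 6 lower, beside 17.5% and 27.2% of all genes. Macrophage and blood stem cell markers summed higher in both groups from mice, and erythroid and hepatic markers in FL-LSKCD201+, while Mrc1 was higher in D5-LSKCD201+ (above). Endothelial markers were higher in D5-LSKCD201+ (above), and so was the sum of 10 stromal markers, at 90.7 to 95.2 FPKM against 12.5 to 15.5 in FL-LSKCD201+ and 6.42 to 7.20 in BM-LSKCD201+. Their part in these counts was not tested.

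Between FL-LSKCD201+ and BM-LSKCD201+, 11 of 99 tested redox genes were higher (11.1%) and 15 lower (15.2%) in FL-LSKCD201+, beside 7.78% and 11.3% of all genes. Erythroid markers summed to at least 4950 FPKM in FL-LSKCD201+ against at most 82.3 in BM-LSKCD201+, and hepatic markers to at least 386 against at most 9.78. Macrophage markers summed to 110.9 to 190.2 FPKM in FL-LSKCD201+ and 102.8 to 111.1 in BM-LSKCD201+. The part of these markers was not tested. Asns, asparagine synthetase (2.86 ± 0.09, limma adjusted p = 1.29e-06), Blvrb, which reduces biliverdin and is abundant in red cells (2.22 ± 0.15, limma adjusted p = 3.24e-05), and Cybb, the catalytic subunit of the phagocyte oxidase (2.19 ± 0.12, limma adjusted p = 1.22e-05), were higher. Osgin1 (-3.12 ± 0.14, limma adjusted p = 5.6e-06), Gpx7 (-2.95 ± 0.24, limma adjusted p = 6.41e-05) and Trib3 (-2.43 ± 0.10, limma adjusted p = 4.08e-06) were lower. Of 6 tested arrestin and MLX genes, the group nearest to Txnip, 4 were lower in FL-LSKCD201+ and 0 higher.

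In the coculture comparison, 3 of 103 tested redox genes were higher in 3D+OP9 (2.91%) and 0 lower, beside 2.11% and 0.509% of all genes. They were Sod3, extracellular superoxide dismutase (2.17 ± 0.77 against 0.0267 ± 0.0252 FPKM, SD, n = 3; log2 fold change 1.59 ± 0.19, limma adjusted p = 0.00412), Gpx2 (1.40 ± 0.24, limma adjusted p = 0.0159) and Aldh3a1 (1.10 ± 0.20, limma adjusted p = 0.0209). All 3 were at most a few FPKM and below 0.5 FPKM on average in 3D+0.1% gelatin, so that they passed the filter on low values only through 3D+OP9, and the part of the marker differences between both cultures (above) was not tested. Without 3D+0.1% gelatin replicate 1 or replicate 2, 1 of the 3 was called. Keap1 had a log2 difference of 0.15 ± 0.13 and Bach1 of -0.10 ± 0.09 (limma adjusted p = 0.533 and 0.576).

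**Figure D5:**
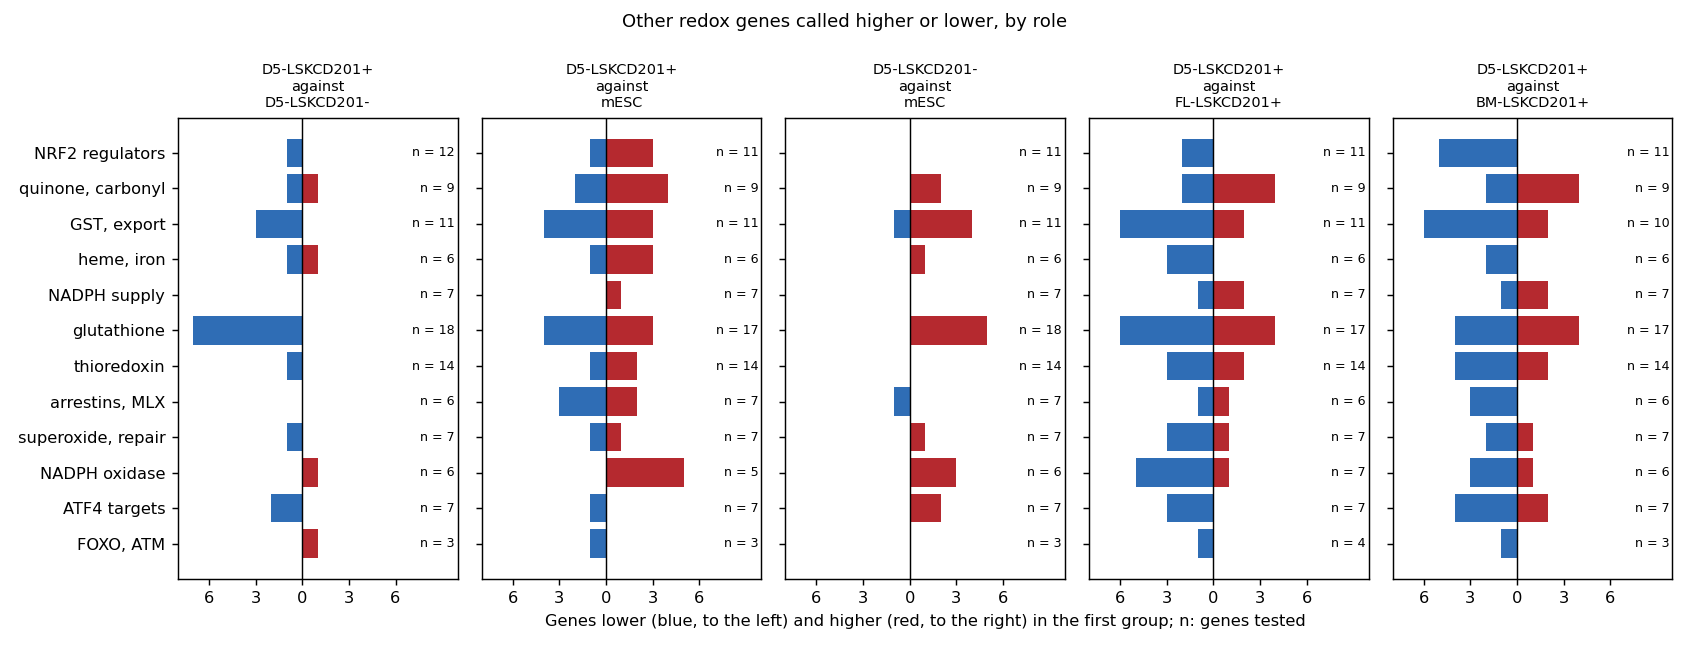
Number of other redox genes called lower (blue bars, to the left) or higher (red bars, to the right) in the first group of 5 comparisons of sorted cells, by role, with the number tested at the right. In D5-LSKCD201+ against D5-LSKCD201-, 7 of 18 glutathione genes are lower and 0 higher, beside 13.9% and 10.8% of all genes. Against BM-LSKCD201+ 5 of 11 regulators are lower and 0 higher, beside 27.2% and 17.5% of all genes.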

How the data were processed

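The authors deposited FPKM per gene and library in 2 tables, one of cocultured and one of sorted cells. The submitters' processing notes and the paper's methods name HISAT2 2.0.5, StringTie 1.3.3 and Cuffdiff 1.3.0, and alignment to GRCm38. Only FPKM were given, without steps of whole reads at low values, so sequencing depth is unknown and no interval per value is given. FPKM summed to between 483263 and 620332 per library.

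Groups and replicates came from the sample labels. Each comparison used only its 6 libraries from 1 table. Genes whose mean reached 0.5 FPKM were tested on log2(FPKM + 1), which understates the change of low genes, with limma 3.58.1 (trend, two-sided) in R 4.3.3. Within each of the 7 comparisons p was adjusted by Benjamini-Hochberg over every gene that passed the filter. Calls needed an adjusted p below 0.05 and a log2 change of 1 or more in either direction. p-values measure the spread between these samples, which may be technical for the cocultured cells. The paper calls the replicates of the sorted groups biological. The code was tested on simulated data.

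The members, the lists and the markers were chosen with earlier results of these data known. Named were all members, Keap1, Bach1, up to 3 other redox genes per direction and comparison with the largest changes among those called without overlap, and the 3 genes most correlated with Nqo1, Txnip and Hmox1. 1 gene that this rule names is not reported here. Foxo1, the regulators lower against BM-LSKCD201+, the pluripotency genes and other single markers were named outside that rule, after their values were seen. Same-numbered FL-LSKCD201+ and BM-LSKCD201+ libraries deviated together (r of 0.242, 0.202 and 0.159), a pairing seen in the data and not given by the labels. Positions are from GENCODE M21 (GRCm38), matched by symbol.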

Additional observations from a re-analysis of the deposited data

How the results depend on the processing

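Under other settings (quantile normalization, a pseudocount of 0.1, a constant prior variance, a low-value filter at 1 FPKM or none, all 5 sorted groups fitted together, a replicate block, the adjusted p alone, and each library left out), the counts of other redox genes called were within 1.5 times of the reported value in 95 of 105 cases. With the adjusted p alone they were 8 for 3D+OP9 against 3D+0.1% gelatin (3 reported), 73 for D5-LSKCD201+ against D5-LSKCD201- (21), 93 and 76 for D5-LSKCD201+ and D5-LSKCD201- against mESC (46 and 20), 81 and 96 for D5-LSKCD201+ against FL-LSKCD201+ and BM-LSKCD201+ (53 and 55) and 68 for FL-LSKCD201+ against BM-LSKCD201+ (26). Over all genes the calls were then 891, 9349, 11496, 7418, 9823, 11486 and 7446, against 339, 3379, 5056, 1949, 4727, 6159 and 2581. In the coculture comparison, calls over all genes were 531 with a pseudocount of 0.1 and 209 without 3D+0.1% gelatin replicate 2. With the replicate number as a block, 5 redox genes were called there, where same-numbered libraries had deviations with r of 0.182, 0.072 and 0.291, not all above 0.1, and the labels give no shared source, so that they were not taken as pairs. The paired fit of FL-LSKCD201+ against BM-LSKCD201+ called 26 genes, as did the unpaired one, and the block changed no other count by over 1.5 times. Leaving out each library in turn gave between 1 and 3 calls in the coculture comparison.

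Differences of the members had another sign in 20 cases, all in differences of at most 0.19 on the log2 scale. Quantile normalization shifted the median of all genes by more than 0.1 in 5 comparisons, up to 0.20 in D5-LSKCD201+ against BM-LSKCD201+. Averaging the closest pair of replicates and leaving out replicate 3 (coculture) or replicate 1 (FL-LSKCD201+ against BM-LSKCD201+) of both groups were chosen after seeing the data, and the last gave 3 and 28 redox calls. Low levels limit Slc7a11, Cbr3 in FL-LSKCD201+ and D5-LSKCD201+, Gclc in D5-LSKCD201+, and the genes called in the coculture.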
